A study of Populus yunnanensis with 9 samples.

Results

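A group of 190 genes of Yunnan poplar leaves was lower under Cd treatment than in the control and higher again when nitrogen was added with the Cd. The genes were chosen by their measured levels, in CPM, which are read counts scaled to a common library total after normalization between libraries by the TMM method. A gene was taken when its mean over the 9 libraries was at least 1 CPM, when every value of the control (CK) and of Cd + N lay above every value of Cd, and when the means of CK and of Cd + N were each at least 1.5 times the mean of Cd. Of 23383 genes with a mean of at least 1 CPM, 445 had the order of values (1.90%) and 190 also had both ratios (0.813%). The deposited data list 41335 genes. The order of the groups and both ratios to Cd are therefore what the selection asked for, and they are given here as a description without a test.

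The plants were Populus yunnanensis, raised from cuttings in pots of soil, and the leaves were taken after 60 d. The CK plants received neither agent. The Cd plants received Cd every 5 d up to 480 mg per kg dry soil, and the Cd + N plants received the same Cd with nitrogen as ammonium bicarbonate up to 360 mg N per kg. Each group has 3 libraries with 31952278 to 40101176 counts on genes. The 72 cuttings came from 15 trees and stood 3 to a pot, and neither the labels nor the methods say which trees or pots went into a library. A p-value here sets the difference between groups against the spread between these libraries. Differences between source trees could lie in either and cannot be told apart from them. No group received nitrogen without Cd.

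Cd is a toxic metal without a nutritional role in plants. It is taken up by roots, reaches the leaves, and is known to impair photosynthesis, chlorophyll content and redox balance there. Nitrogen is a constituent of amino acids, nucleic acids and chlorophyll, and ammonium enters metabolism through glutamine and glutamate. The data list genes by identifier and do not pair the identifiers with names or descriptions. No function is therefore given for a gene, and the leaf label was not checked against marker genes. Only 4 identifiers are printed. In bulk leaves, fewer cells of a type and less RNA per cell cannot be told apart.

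The 190 genes were 1.5 to 30.5 times higher in CK than in Cd, with a median of 2.71 and a middle range of quartiles from 1.89 to 4.29. The gene at 30.5 had 6 counts in all over Cd and 0.209, 4.19 and 0.448 CPM in CK replicates 1, 2 and 3, and its ratio was 6.14 without CK replicate 2. Cd + N over Cd had a median of 3.03 with quartiles of 1.93 and 7.58. The largest ratio of Cd + N to Cd was 76.6 among the 189 genes with more than 3 counts over the Cd libraries. That gene had 0.234, 8.36 and 0.652 CPM in Cd + N replicates 1, 2 and 3 and 4 counts over Cd, and its ratio was 11 without Cd + N replicate 2. Both of these largest ratios thus rested on 1 high library. The remaining gene had 2 counts in all over the 3 Cd libraries, and no ratio is given for it. Both ratios reached 2 in 116 genes, 3 in 74, 5 in 32 and 10 in 13. The smaller of the 2 ratios was that of CK in 129 genes and that of Cd + N in 61.

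**Figure D1:**
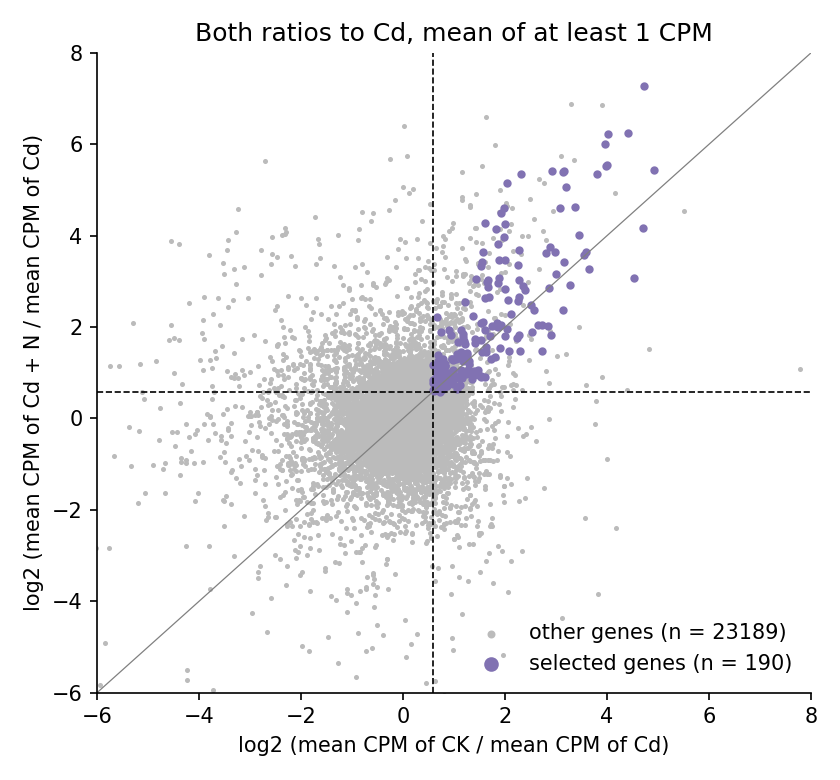
Ratio of the CK mean to the Cd mean (x axis) and of the Cd + N mean to the Cd mean (y axis), both on a log2 scale, for genes with a mean of at least 1 CPM and a finite value on both axes. Dashed lines mark a ratio of 1.5, the solid line marks equal ratios, and the 190 selected genes are in purple, with grey genes beyond both dashed lines whose libraries overlapped. Both axes share the Cd mean, and genes beyond the axis limits are not drawn.

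At the limit of the rule the selection was a fine one. The 3 genes just inside it had smaller ratios of 1.506, 1.504 and 1.503, and the 3 just outside had 1.498, 1.493 and 1.491. The separation of the libraries was often narrow as well. The lowest CK or Cd + N value was a median of 1.26 times the highest Cd value, under 1.1 times in 43 genes and over 2 times in 26.

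The levels of the genes in each library show how the groups were ordered. Taken against the gene's own Cd mean, the median gene was at 2.17, 2.85 and 2.37 times in CK replicates 1, 2 and 3. Under Cd it was at 1.15, 1.05 and 0.775 times, and under Cd + N at 2.34, 2.97 and 3.59 times. Within Cd, replicate 3 was thus the lowest library, and it held the lowest Cd value in 60.0% of the 190 genes against 26.3% of all genes with a mean of at least 1 CPM. Replicate 1 held the highest Cd value in 49.5% against 40.0%. Within Cd + N, replicate 1 was the lowest in 65.8% of the genes against 30.4% of all genes, and replicates 2 and 3 were the highest in 41.6% and 49.5% against 40.4% and 27.4%. Within CK, replicate 2 was the highest in 54.7% against 39.5%, and replicate 1 was the lowest in 45.8% against 26.1%. The library nearest to the Cd values was CK replicate 1 in 59 genes, CK replicate 3 and Cd + N replicate 1 in 44 each, Cd + N replicate 2 in 19, CK replicate 2 in 14 and Cd + N replicate 3 in 10.

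**Figure D2:**
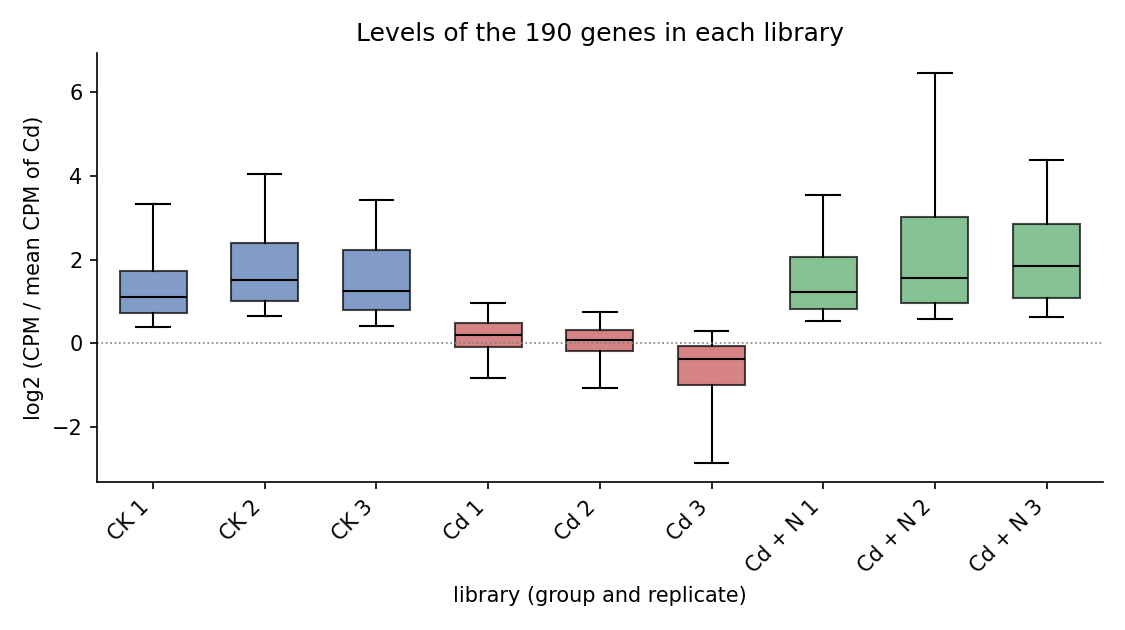
Level of the 190 genes in each of the 9 libraries, as log2 of the CPM over the gene's mean CPM in Cd (the dotted line at 0). Boxes span the quartiles with the median as a line and whiskers run from the 5th to the 95th percentile, and the 3 Cd boxes (red) lie below those of CK (blue) and Cd + N (green), as the selection fixes, with Cd replicate 3 lowest and the widest upper whisker in Cd + N replicate 2.

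As a description, the genes varied more between replicates than genes did in general. Their median coefficient of variation, the SD divided by the mean, was 27.6% for the CK libraries, 33.8% for Cd and 28% for Cd + N, against 15.4%, 18.4% and 18.6% over all genes with a mean of at least 1 CPM. They were also less abundant. Per gene length, in FPKM, the 190 genes had a median level of 3.79 with quartiles of 1.42 and 14.2, and the genes with a mean of at least 1 CPM had a median of 7.79. The median recovered gene length was 1593 bases against 1926. Of the 190 genes, 32 had a mean under 1 FPKM, 62 over 10 FPKM and 12 over 100 FPKM. The share of the variation that comes with the low level was not tested.

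The largest ratios belonged to genes of low level. The 10 genes with the largest smaller ratio, from 12 to 30.5, had means over the 9 libraries of 1.15 to 3.45 CPM, and 2 to 16 counts in all over the 3 Cd libraries. Of the 190 genes, 15 had under 10 counts in every Cd library and 10 had 0 counts in at least 1 of them. All 190 passed the filter on low counts, which a gene can pass through CK and Cd + N alone, so passing it is no result about these genes. The median total over the Cd libraries was 229 counts.

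A set of 18 genes was high in Cd + N replicate 2 alone, with a value there at least 3 times that of each other Cd + N library, and 7 of the 10 genes with the largest smaller ratio were among them. The median of the 18 genes was 9.28 CPM in Cd + N replicate 2, against 0.804 and 1.11 CPM in Cd + N replicates 1 and 3. In CK replicates 1, 2 and 3 the median was 0.771, 1.23 and 0.617 CPM. In Cd replicates 1, 2 and 3 it was 0.223, 0.159 and 0.0255 CPM. These genes therefore lay at a low level in all libraries but one, and in the other 2 Cd + N libraries their median was near that of CK. The set makes up 9.47% of the 190 genes, and genes of this kind make up 2.54% of all genes with a mean of at least 1 CPM. Without Cd + N replicate 2, every CK and Cd + N value of all 18 genes was still above every Cd value, and the smallest of their smaller ratios was 1.999 and the median 6.30. In 15 of them, however, the mean was then below 1 CPM, so that 3 still met the rule. The median ratio of Cd + N to CK in these 18 genes was 4.41 with all libraries and 1.02 without Cd + N replicate 2. Likewise 9 genes were high in CK replicate 2 beside each other CK library, or 4.74% against 1.31% of all genes. Of these, 2 were among the 10 with the largest smaller ratio. In the same sense, 1 gene was high in CK replicate 3, or 0.526% against 0.710% of all genes. Cd + N values were not part of this comparison within CK, and in some of these genes they were higher still. In the remaining CK and Cd + N libraries, 0 of the 190 genes were high in this way. The shares of all genes there were also small, at 0.210% for CK replicate 1, 0.329% for Cd + N replicate 1 and 0.180% for Cd + N replicate 3.

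At the other end, 12 genes exceeded a mean of 100 FPKM. The most abundant one had 2650, 5133 and 4628 FPKM in CK replicates 1, 2 and 3. It had 1082, 1077 and 345 FPKM in Cd replicates 1, 2 and 3. Under Cd + N it had 4693, 6688 and 7174 FPKM. The ratio of CK to Cd was 5.11 and that of Cd + N to Cd 7.47, and CK and Cd + N overlapped, since CK replicate 2 was above Cd + N replicate 1. The second most abundant gene was at 621, 852 and 941 FPKM in CK, 215, 581 and 300 FPKM in Cd, and 760, 1028 and 917 FPKM in Cd + N. Its CK and Cd + N libraries also overlapped, and Cd replicate 2 came close to CK replicate 1. FPKM values are not normalized between libraries beyond the total count.

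The selection did not compare the level under Cd + N with that of CK directly, but it used the values of both groups. In 15 of the 18 genes high in Cd + N replicate 2 alone, the mean reached 1 CPM only with that library. The comparison of Cd + N with CK is thus not independent of the selection. In 123 of the 190 genes (64.7%) the Cd + N mean lay within 1.5 times the CK mean in either direction, against 70.3% of the genes tested. In 53 genes it was at least 1.5 times the CK mean, in 40 of them at least 2 times, and in 14 genes it was at or under the CK mean divided by 1.5. The 18 genes high in Cd + N replicate 2 alone made up 18 of the 53 and 17 of the 40, and without that library, a setting added after the data were seen, 40 of the 190 genes were at 1.5 times or more and 23 at 2 times or more. The Cd + N mean was above the CK mean in 129 genes (67.9%) and below it in 61, against 49.8% above among all genes tested. The median log2 fold change of Cd + N against CK was 0.18 with quartiles of -0.08 and 0.73, and over all genes tested it was 0.00 with quartiles of -0.30 and 0.30. The SD between libraries of the genes' median log2 CPM, within CK and Cd + N, was 0.318, which is larger than this median. Leaving out CK replicate 1 gave a median of 0.09, the lowest of the 9 values, leaving out CK replicate 2 gave 0.30, the highest, and leaving out Cd + N replicate 2 gave 0.11.

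**Figure D3:**
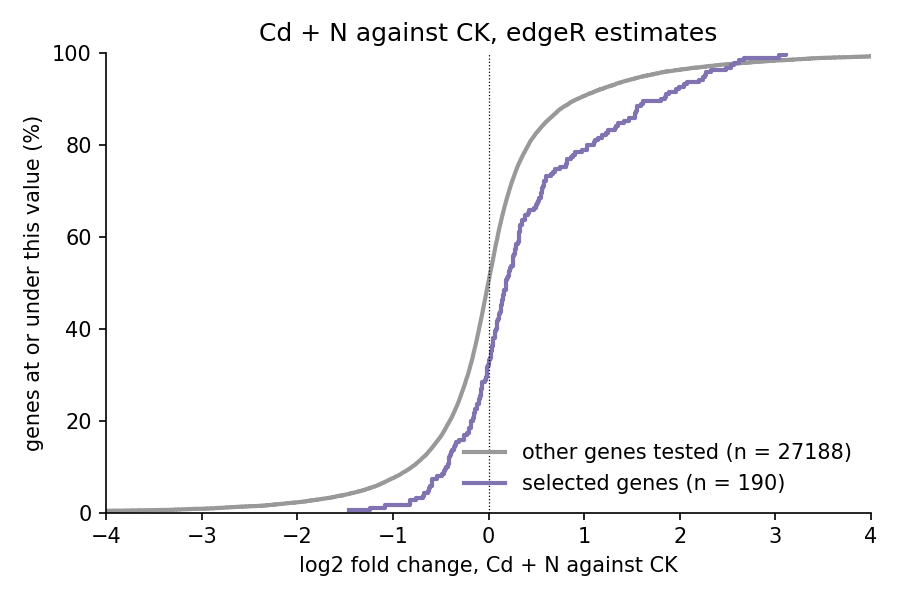
Cumulative share of genes (y axis, in %) by log2 fold change of Cd + N against CK (x axis), for the 190 selected genes in purple and the other genes tested in grey. The curve of the selected genes lies to the right of the other over most of its range and meets it near the top, with a median of 0.18 against 0.00 for all genes tested. Values beyond 4 in either direction are not drawn.

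By edgeR's quasi-likelihood test, none of the 190 genes was past an adjusted p of 0.05 in Cd + N against CK, that is 0 genes, where 0.267% of the 27378 genes tested were past it (Benjamini-Hochberg adjustment over all genes). The smallest adjusted p of a selected gene was 0.0600. At an unadjusted p under 0.05 there were 30 selected genes, 15.8%, against 17.1% of all genes tested. Of these, 29 were higher under Cd + N, or 15.3% against 9.44%, and 1 was lower. Some of the 29 were among the 18 genes high in Cd + N replicate 2 alone, of which 15 reached a mean of 1 CPM only with that library. The share of 15.3% is therefore not independent of the selection and is given as a description. The median ratio of Cd + N to CK in those 18 genes was 1.02 without that library. Every Cd + N value was above every CK value in 30 genes (15.8% against 13.5%) and below in 7 (3.68% against 12.6%). That all 190 genes missed the threshold in this fit does not show that their levels in CK and Cd + N were equal.

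Same-numbered libraries of CK and Cd + N deviated together, but a differently numbered pair did so as well, and the source of a pairing is not stated. The fit with the replicate number as a block called 7 of the 190 genes, or 3.68%, against 5.27% of all genes tested. All 7 were higher under Cd + N than in CK, a direction in which 2.95% of all genes were called. DESeq2 called 14 of the 186 genes to which it gave an adjusted p (7.53% against 7.26%), 13 of them higher under Cd + N (6.99% against 4.21% of all genes), and the 7 genes of the blocked fit were among them. In either direction together the share called by DESeq2 was thus near that of all genes and that of the blocked fit below it. For genes higher under Cd + N, the blocked share (3.68% against 2.95%) was near that of all genes. The DESeq2 share in that direction (6.99% against 4.21%) was above it. Since the comparison of Cd + N with CK is not independent of the selection, neither share is read as a trait of the 190 genes. With limma on log2(FPKM + 1), 2 of the 162 selected genes in that test were called (1.23% against 1.08% of all genes), and without Cd replicate 1 edgeR called 2 of the 190 (1.05% against 1.57%). These shares were not compared by a test. In the 7 genes the Cd + N mean was 2.04 to 4.81 times the CK mean, the mean over the libraries was 2.58 to 239 CPM, and no CK value reached a Cd + N value.

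The 4 genes given by identifier were chosen after their values were seen. They are the gene with the smallest p in the blocked fit and the most abundant gene among the 7, and the 2 genes with the smallest p in the fit without a block among those lower under Cd + N than in CK. Potri.016G043400.v3.0 had 1.52, 3.35 and 1.32 CPM in CK replicates 1, 2 and 3. It had 0.514, 1.09 and 0.510 CPM under Cd and 4.59, 11.4 and 6.89 CPM under Cd + N. The 3 Cd + N libraries were all above the CK libraries, with replicate 2 highest in each group. Cd + N differed from CK by 1.89 ± 0.507 (SE) on the log2 scale, with an adjusted p of 0.137 by edgeR and of 0.0189 with the replicate block. Over 18 other settings its adjusted p ran from 0.00810 to 0.484 and the difference from 1.12 (limma on log2(FPKM + 1)) to 2.42. The SE of a log2 difference is an approximation, obtained by dividing its size by the root of the F statistic.

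Potri.004G086500.v3.0 had 79.7, 256 and 75.1 CPM in CK replicates 1, 2 and 3. Under Cd it had 25.6, 64.1 and 14.1 CPM, and under Cd + N 333, 728 and 572 CPM. Replicate 2 was the highest in each group. No CK value reached a Cd + N value, while the separation from Cd is fixed by the selection. Cd + N differed from CK by 1.99 ± 0.674 (SE) on the log2 scale, with an adjusted p of 0.205 by edgeR and of 0.0285 with the replicate block, and the adjusted p over 18 other settings ran from 0.0284 to 0.564. The difference itself ran from 1.69 to 2.81, the latter without CK replicate 2, the highest CK library. The gene with the next number is the most abundant one described above. Both had a recovered length of 357 bases. Their sequences were not compared, and how the counting treated reads that could fit both is not known, so their separate levels are uncertain. For the neighbour, Cd + N against CK gave 0.55 ± 0.489 (SE) on the log2 scale and an adjusted p of 0.585 by edgeR.

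Potri.003G082100.v3.0 lay between CK and Cd under Cd + N. It had 20.5, 20.6 and 39.0 CPM in CK replicates 1, 2 and 3, 2.98, 6.54 and 2.63 CPM under Cd, and 8.98, 10.6 and 14.3 CPM under Cd + N. No Cd + N value reached a CK value, while the separation from Cd is fixed by the selection. The Cd + N mean was 42.4% of the CK mean. Cd + N against CK gave -1.24 ± 0.404 (SE) on the log2 scale, with an adjusted p of 0.192 by edgeR, 0.110 with the replicate block and 0.0493 by DESeq2, and from 0.0493 to 0.447 over 18 other settings. Potri.014G033400.v3.0 had 7.26, 9.32 and 15.7 CPM in CK, 3.16, 1.43 and 1.96 CPM under Cd, and 5.03, 5.18 and 7.98 CPM under Cd + N. Here CK and Cd + N overlapped, as Cd + N replicate 3 was above CK replicate 1. The Cd + N mean was 56.4% of the CK mean, a difference of -0.83 ± 0.381 (SE) on the log2 scale, and the adjusted p was 0.311 by edgeR and from 0.215 to 0.638 over 18 other settings. The gene with the next number was also among the 190, at 2.27, 2.70 and 3.50 CPM in CK, 1.75, 0.583 and 0.638 CPM under Cd, and 1.93, 1.87 and 1.83 CPM under Cd + N.

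**Figure D4:**
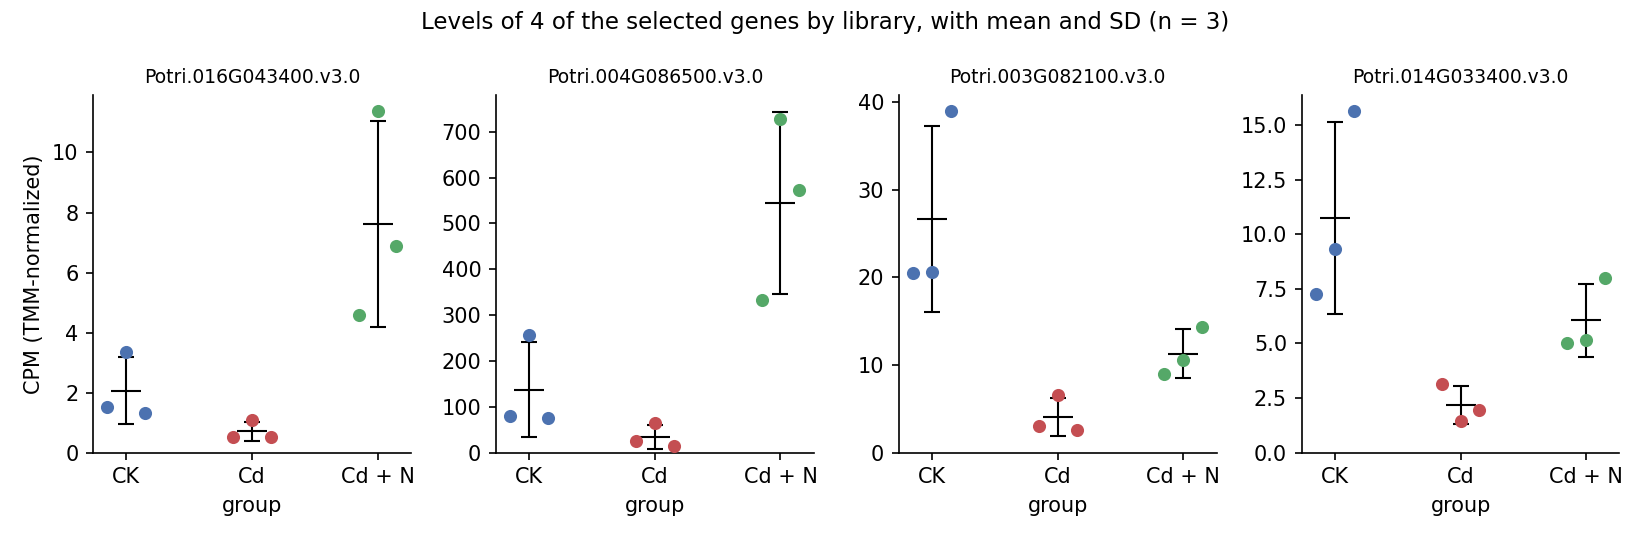
CPM of 4 of the selected genes in each library (points, in the order of replicates 1, 2 and 3 from left to right) by group, with the mean and SD of 3 libraries as bars. In the left pair of panels all Cd + N points lie above all CK points, and in the right pair the Cd + N mean is 42.4% and 56.4% of the CK mean.

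The identifiers hold a chromosome number before the letter G and a number that runs along the chromosome after it, in steps of 100. Of the 190 genes, 185 carry a chromosome number, with members on all 19 chromosomes, from 3 on chromosome 11 to 23 on chromosome 1, and 5 lie on scaffolds. Several genes had direct neighbours among the 190. There were 12 pairs with consecutive numbers, which hold 24 genes. Of the 234 genes with a mean of at least 1 CPM that stand next to a selected gene by number, 24 were selected themselves (10.3%), against 0.813% of all genes with a mean of at least 1 CPM. This is a description without a test, since neighbours can be copies or overlapping gene models that share reads, which was not tested here. The mean levels within a pair were closest at 1.18 and 1.48 CPM and farthest apart at 530 and 2.75 CPM.

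The number of genes that met the rule rose most when Cd replicate 1 or Cd replicate 2 was left out. Without Cd replicate 1, 822 genes met it, and 183 of the 190 were among them. Without Cd replicate 2, 380 genes did, with 177 of the 190. Leaving out any other single library gave 187 to 274 genes, of which 165 to 186 were among the 190. With a library left out, fewer orderings are asked for, and the means and ratios change as well. A Cd library takes part in more of the orderings than a CK or Cd + N library, so part of its larger effect is fixed by the rule. Cd replicate 1 held the highest Cd value in 49.5% of the 190 genes. By the same rule in the opposite direction, with every Cd value above every CK and Cd + N value and both ratios reversed, 131 genes were found. Set the same way on the other groups, the rule found 408 genes with CK lowest, 229 with CK highest, 359 with Cd + N lowest and 590 with Cd + N highest, so that the pattern studied here was the less frequent one beside each of these 4 and the more frequent one beside its reverse.

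**Figure D5:**
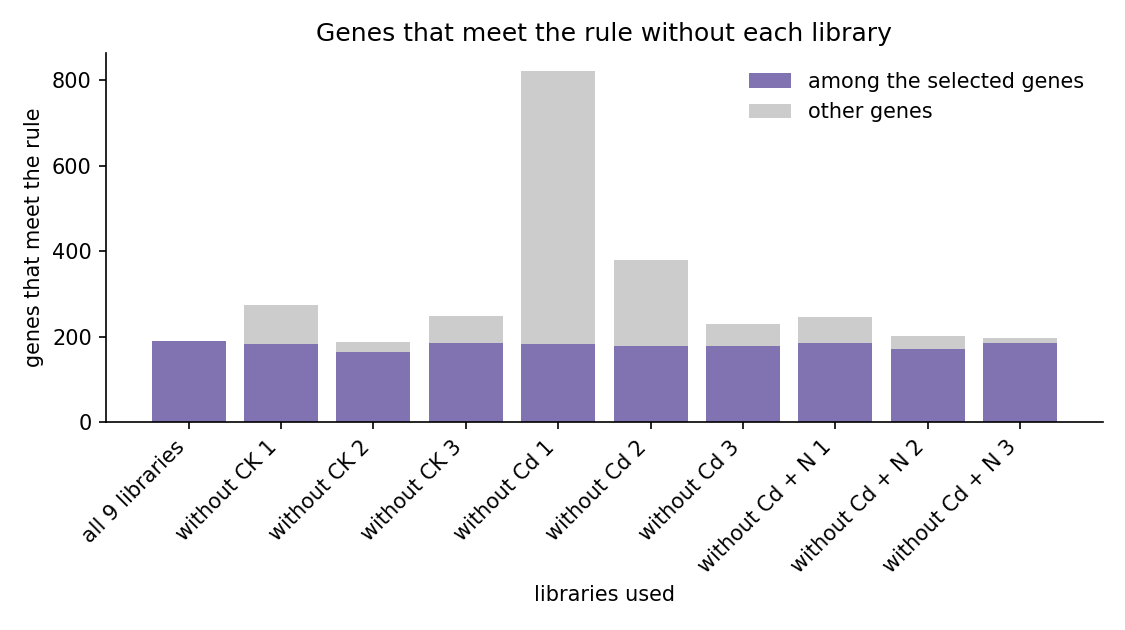
Number of genes that meet the rule (y axis) with all 9 libraries and with each library left out (x axis), divided into genes among the 190 (purple) and others (grey). The bar without Cd replicate 1 reaches 822 and that without Cd replicate 2 reaches 380, while the others lie between 187 and 274.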

How the data were processed

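RNA was sequenced from leaves in 9 libraries, and the title of each sample gave its group and number. The authors deposited read counts per gene without normalization, and FPKM values, which equalled the count scaled to gene length and total count within a relative tolerance of 1e-06. The submitters' processing notes name Bowtie2 2.0.6 and TopHat2 2.0.12, and the counting tool, its strand setting and the annotation are not given in the sources used here. Gene lengths were recovered from both tables, and all were multiples of 3.

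The genes studied and all lists were chosen with earlier results of these data known. Tests used edgeR 4.0.16, DESeq2 1.42.0 and limma 3.58.1 under R 4.3.3, and figures used matplotlib 3.10.9. TMM factors were computed on the 27378 genes that passed filterByExpr (minimum count 10, minimum total 15) and used for the CPM of all genes. Cd + N was compared with CK by the quasi-likelihood test on all 9 libraries without a block, adjusted over all genes tested, with a threshold of 0.05. The code was tested on simulated data. Replicate libraries all differed beyond sampling noise (chi-square per degree of freedom 28 or more), so each counted once.

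Same-numbered libraries of CK and Cd + N deviated together from the means of their groups, with correlations across genes of 0.115 to 0.323, over the limit of 0.1 for a pairing in each of the 3 pairs, and the source of the pairing is not stated. A differently numbered pair, CK replicate 3 with Cd + N replicate 1, reached 0.273, above 2 of the same-numbered pairs, and the replicate 3 libraries correlated with that of Cd at only 0.0543 (CK) and 0.0449 (Cd + N). The replicate block was therefore used as a second fit. Lists of genes by function had been planned from gene descriptions, and they were not run, since the files list identifiers alone. The planned rule for naming genes (largest ratios, highest FPKM, smallest p past the threshold) was not followed. The 4 identifiers printed were chosen by other criteria after their values were seen. Alternatives were other normalization factors, no filter, DESeq2, the 6 libraries of CK and Cd + N alone, limma on log2(FPKM + 1) and log2(FPKM + 0.1), other limits of the rule and leaving out each library.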

Additional observations from a re-analysis of the deposited data

How the results depend on the processing

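By edgeR without a block, 0 of the 190 genes were past the threshold in Cd + N against CK, near the 0.267% of all genes tested. The share over all genes is not given for the other settings with a count of 0, so these counts say little about the 190 genes. The count stayed at 0 in edgeR with upper-quartile factors, with DESeq2's size factors and without a filter on low counts. It was also 0 with only the 6 libraries of CK and Cd + N, with limma on log2(FPKM + 0.1), and with limma on log2(FPKM + 1) without a filter. It was 14 by DESeq2 (7.53% of the 186 genes with an adjusted p, against 7.26% of all genes). It was 7 with the replicate block (3.68% against 5.27%) and 2 with limma on log2(FPKM + 1), where 1.08% of all genes were called. With each library left out in turn it ranged from 0 to 2, the latter without Cd replicate 1, where 1.57% of all genes were called. The median log2 fold change was 0.18 in the main fit and ran from 0.09 to 0.30 over the 18 settings. These moves were smaller than the spread between libraries, 0.318, but that spread exceeds the median itself, so this says little. The 4 genes given by identifier kept their direction in each setting. They were chosen by their values in this same contrast, and the settings share most of their libraries, so a kept direction is no support for them. The number of genes that met the rule was 99 with a mean of at least 5 CPM in place of 1 and 116 with ratios of at least 2. Leaving out single libraries gave between 187 and 822 genes, with 822 for Cd replicate 1 and 380 for Cd replicate 2. It was 195 with upper-quartile factors (189 of the 190 genes among them), 191 with DESeq2's size factors (189), 182 with CPM on total counts (160) and 260 with ratios of at least 1.3. With TMM factors from all genes with a count, a setting added after the data were seen, it was 189 (188 of the 190). Stricter limits lower the number by construction, and other causes were not tested. Each group has 3 libraries, and the size of difference between CK and Cd + N that they could show was not measured. The ratios to Cd of the 15 genes with under 10 counts in every Cd library rest on few counts.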
